A study of Mus musculus with 96 samples.

Results

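The 40 genes described here are a list of interferon response genes, taken by gene name and chosen with earlier results of these data known. Of the 40, 39 have a row in the deposited tables, which hold 39179 genes, and the remaining one, Gbp6, was not analysed here. The libraries measure mRNA from the cerebellum of C57BL/6 mice of a Huntington's disease allelic series, in which a heterozygous knock-in allele of Htt carries a CAG repeat of a set length. The groups were heterozygous knock-in mice with 20, 50, 92 or 140 CAG repeats, called Q20, Q50, Q92 and Q140, wild type mice that shared cages with Q50 mice (WT-Q50cage) and wild type mice that shared cages with Q20 mice (WT-Q20cage), the wild types being described as littermates. Every group was sampled at 6 and at 10 months of age with 4 females and 4 males, which gives 12 groups of 8 and 96 libraries. No treatment is labelled in any group, the knock-in mice keep 1 wild type copy of Htt, and Q92 and Q140 mice are labelled as housed with their own genotype. Genotype and cage therefore cannot be told apart for Q92 and Q140. The labels do not say that every library came from a different animal, so the p-values below may in part measure technical spread. The summed counts per library ran between 29957797 and 39477325, with a median of 34251076, and no 2 libraries held the same values.

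Interferons are secreted proteins that put cells into an antiviral state. RNA helicases and other sensors detect foreign or misplaced nucleic acid and switch on interferon genes, the secreted proteins bind receptors on the same or neighbouring cells, and the kinases JAK1 and TYK2 then activate transcription factors of the STAT family, STAT2 among them. A complex that holds STAT2 and IRF9 binds the interferon-stimulated response element upstream of target genes, whereas interferon gamma acts mainly at gamma-activated sites. The listed genes are targets of these pathways, and several of them, such as Stat2, Irf9, Irf7 and the helicases, are also parts of the machinery itself.

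Promoter windows are shown for 6 of the members that the results below turn on, and all 6 hold the interferon-stimulated response element. Bst2, Isg15, Ifit1 and Ifit3 were highest in a single library, Gbp3 differed between the sexes, and Stat2 went against the other members with age. The sequences are RefSeq promoters of GRCm38.p6, read 5′ to 3′ along the gene, from 250 bases before to 50 bases after the annotated start. Capitals mark the core of the interferon-stimulated response element, searched on both strands as GAAA, any NN and GAAA again; on the opposite strand this reads TTTC, NN and TTTC, and overlapping matches are joined.
Bst2: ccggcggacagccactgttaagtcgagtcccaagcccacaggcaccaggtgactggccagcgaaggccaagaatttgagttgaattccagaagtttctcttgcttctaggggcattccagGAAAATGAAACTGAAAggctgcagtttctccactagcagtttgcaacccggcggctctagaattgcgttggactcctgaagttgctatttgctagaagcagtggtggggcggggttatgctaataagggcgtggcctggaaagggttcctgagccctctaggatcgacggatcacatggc
Isg15: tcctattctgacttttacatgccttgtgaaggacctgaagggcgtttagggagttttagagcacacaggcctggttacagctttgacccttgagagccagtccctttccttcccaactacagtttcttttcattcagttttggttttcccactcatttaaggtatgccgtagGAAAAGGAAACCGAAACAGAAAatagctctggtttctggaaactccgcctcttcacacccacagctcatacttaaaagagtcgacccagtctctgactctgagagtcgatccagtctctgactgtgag
Ifit1: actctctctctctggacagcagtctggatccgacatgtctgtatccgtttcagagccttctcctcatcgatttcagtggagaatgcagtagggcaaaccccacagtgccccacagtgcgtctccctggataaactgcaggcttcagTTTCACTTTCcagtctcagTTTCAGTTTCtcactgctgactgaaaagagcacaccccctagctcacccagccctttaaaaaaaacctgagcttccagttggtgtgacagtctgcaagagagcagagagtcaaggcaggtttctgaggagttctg
Ifit3: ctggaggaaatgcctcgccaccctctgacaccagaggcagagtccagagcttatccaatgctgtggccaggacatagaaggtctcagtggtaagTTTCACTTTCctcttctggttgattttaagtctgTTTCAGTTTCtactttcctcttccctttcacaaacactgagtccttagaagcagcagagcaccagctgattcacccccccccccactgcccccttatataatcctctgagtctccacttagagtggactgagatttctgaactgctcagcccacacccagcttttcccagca
Gbp3: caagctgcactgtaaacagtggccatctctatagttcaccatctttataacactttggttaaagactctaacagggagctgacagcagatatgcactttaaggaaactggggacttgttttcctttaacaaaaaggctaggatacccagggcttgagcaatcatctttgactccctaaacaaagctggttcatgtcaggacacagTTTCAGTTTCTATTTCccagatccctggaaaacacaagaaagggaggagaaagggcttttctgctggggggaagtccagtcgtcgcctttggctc
Stat2: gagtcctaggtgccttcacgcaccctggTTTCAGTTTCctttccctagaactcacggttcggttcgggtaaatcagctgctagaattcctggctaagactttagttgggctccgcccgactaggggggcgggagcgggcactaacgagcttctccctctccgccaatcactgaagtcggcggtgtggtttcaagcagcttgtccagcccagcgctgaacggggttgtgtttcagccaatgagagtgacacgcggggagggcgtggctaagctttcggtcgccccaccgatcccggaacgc
The Bst2 window (ENSMUSG00000046718) is chr8:71537423-71537722 on the minus strand. The Isg15 window (ENSMUSG00000035692) is chr4:156200769-156201068 on the minus strand. The Ifit1 window (ENSMUSG00000034459) is chr19:34640639-34640938 on the plus strand. The Ifit3 window (ENSMUSG00000074896) is chr19:34583279-34583578 on the plus strand. The Gbp3 window (ENSMUSG00000028268) is chr3:142559794-142560093 on the plus strand. The Stat2 window (ENSMUSG00000040033) is chr10:128270248-128270547 on the plus strand. The Bst2 window holds 2 overlapping matches and the Isg15 window 3, all along the gene's own strand. Ifit1 and Ifit3 each hold 2 separate matches on the opposite strand, and Stat2 holds 1. The Gbp3 window, 1 of 2 listed for that gene, holds 2 overlapping ones, and the other Gbp3 window holds none. Oasl2, Irf7 and Irf9, which the results below also turn on, are not shown, and no listed promoter of theirs holds a match. By symbol, 27 of the 40 members had at least 1 promoter in the table, and 17 of these 27 (63%) held the element, against 1079 of 27025 genes (3.99%) over all promoters of the same length. The gamma-activated site, searched as TTCNNNGAA, reads the same on both strands and was present in 7 of the 27 members (25.9%), against 9.55% of all genes. A match describes the letters in the window and is not evidence that the element is used in the cerebellum.

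Most members were expressed at low levels. Levels below are in FPKM, fragments scaled by transcript length and by the number of mapped fragments, as the authors deposited them. Stat2, the STAT subunit that binds IRF9, averaged 28.1 FPKM over the 96 libraries, Ifi27, which encodes a small mitochondrial and membrane protein, averaged 26.0, Ifit3, an antiviral protein of the tetratricopeptide repeat family, averaged 12.98, and Irf9 averaged 10.98. Another 26 members averaged 1 to 10 FPKM and 9 averaged under 1, the lowest being Mx1 at 0.167 FPKM, which 2 libraries list at 0. All 39 members passed the filter on low counts at each age, among 17020 genes tested at 6 months and 16947 at 10 months. In whole tissue, fewer cells of a type and less RNA per cell cannot be told apart.

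**Figure D1:**
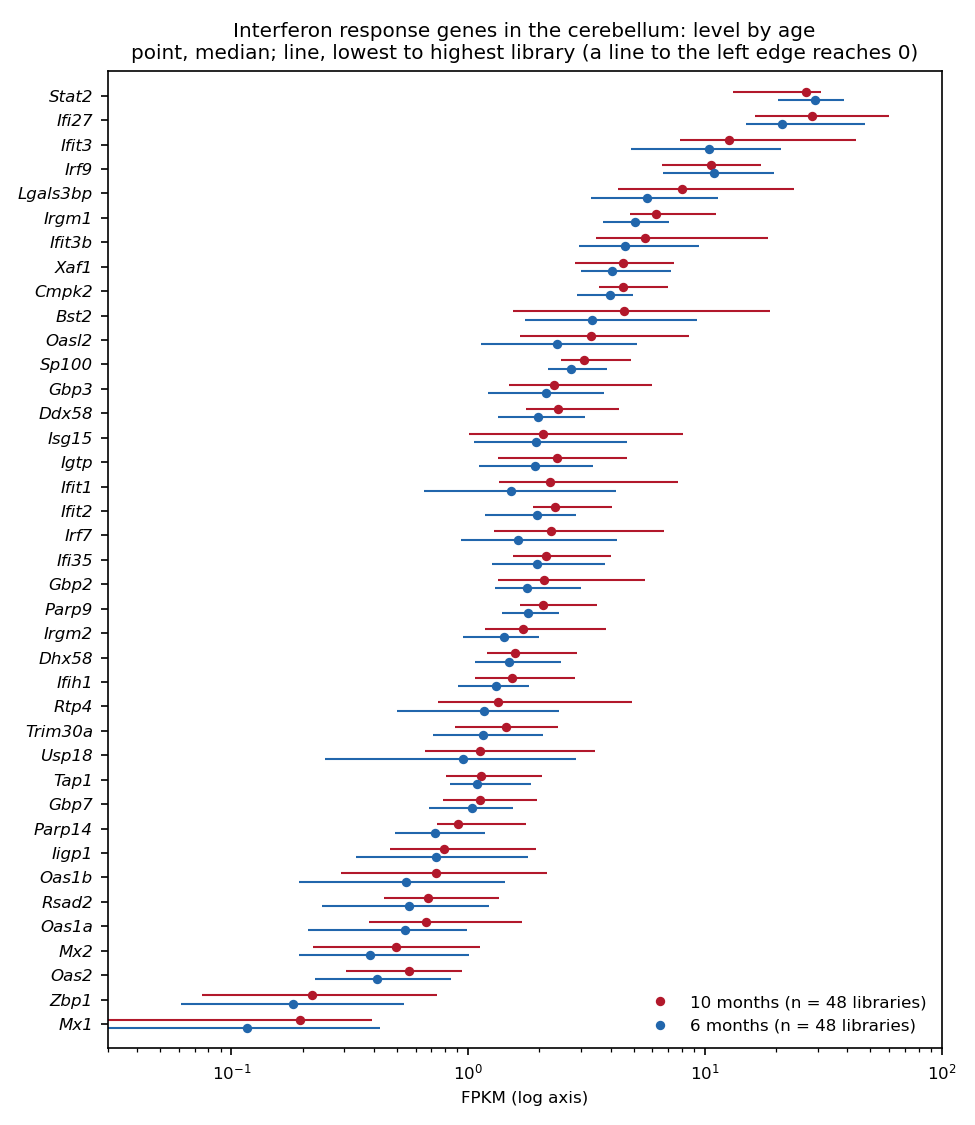
Level of each of the 39 members in FPKM on a log axis, ordered by mean level, with 10 months drawn above 6 months; the point is the median of 48 libraries and the line runs from the lowest to the highest library. Stat2 and Ifi27 lie highest, and the lines of Bst2, Ifit1 and Isg15 reach far above their medians at 10 months.

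The members differed in how far they varied. Stat2 ran from 13.2 to 38.8 FPKM with a median of 28.0, and its highest library was 1.39 times the median. Bst2, which encodes tetherin, a membrane protein that holds budding virus particles at the cell surface, ran from 1.54 to 18.8 FPKM with a median of 4.06, and its highest library was 4.64 times the median. The coefficient of variation over the 96 libraries was 11.6% for Stat2 and 51.3% for Bst2. The largest were 56.8% for Zbp1, a sensor of left-handed nucleic acid, and for Mx1, a GTPase that traps viral nucleocapsids, both at a mean below 1 FPKM.

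Some members share sequence or position with other genes, and their counts are less certain. Of the transcript sequence of Oas1a, 57.6% in words of 50 bases also occurs in other genes, chiefly Oas1g, and for Ifit3 and Ifit3b, which are neighbours on chromosome 19, the shares are 51.2% and 45%. Igtp and Irgm2 overlap on the same strand, as do Irf9 and Rnf31, Rtp4 and Gm45338, and Gbp7 and Gm43802. The strand of the reads is not given in the sources used here, so reads of Irf7 and Phrf1, Usp18 and Gm44148, Dhx58 and Dhx58os, Parp9 and Dtx3l, Ifi35 and Gm11626, Tap1 and Psmb9, and Gbp2 and Mir6381, which overlap on opposite strands, cannot be told apart there.

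The members moved together from library to library within an age. For each library a score was formed, the mean over the 39 members of the log2 CPM (counts scaled by library size) minus the median of the 48 libraries of that age. Ranked by the lower rho of the 2 ages, Ifit1, which recognises viral RNA caps, came first among members, with Spearman's rho of 0.94 at 10 months and 0.94 at 6 months (n = 48 each). Igtp, an interferon gamma-inducible GTPase, had 0.87 and 0.88, and Oasl2, a relative of the oligoadenylate synthetases, had 0.95 and 0.87. Lowest by the same measure were Irf9, at 0.56 and 0.20, Stat2, at 0.25 and 0.33, and Dhx58, a helicase that regulates the other RNA helicases, at 0.31 and 0.39. All values come from the same libraries and share their depth, and each member is part of the score, so these are descriptions only.

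At 10 months 3 libraries stood above the rest. A member was counted as high in a library where its log2 CPM was at least 1 above the age's median, which is 2-fold, and a library as high where at least 10 members were. By this rule Q92 female 2, Q92 male 2 and WT-Q50cage female 2 stood high at 10 months, with 19, 10 and 12 high members. Their scores, in the same order, were 1.03, 0.78 and 0.73, or 2.04, 1.72 and 1.66 times the age's median. Because the rule uses the members' own values, the fits below that leave these libraries out are descriptions only. No 6-month library reached 10 members; the nearest was Q20 male 1, with 9 high members and a score of 0.72, followed by WT-Q50cage female 3 (0.62), Q20 female 4 (0.56) and Q50 female 4 (0.54), with 5 each.

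Q92 female 2 held the highest value of all 96 libraries for 27 of the 39 members. Bst2 was at 18.8 FPKM there, and the next highest 10-month library was at 9.47. Isg15, a ubiquitin-like modifier, was at 8.11 FPKM, with the next library at 4.51, and Rtp4, a chaperone-like antiviral protein, was at 4.92 with the next at 3.27. These 3 members were at 4.20, 3.94 and 3.75 times the median of the age. Ifit1 reached 7.70 FPKM and Ifit3 43.4 FPKM in this library, each at 3.55 times the median. Stat2 went the other way, since its 13.2 FPKM in Q92 female 2 was the lowest of all 96 libraries.

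Q92 male 2 had its largest excesses in other members. Irf7, the transcription factor that amplifies the interferon response, was at 6.72 FPKM, 3.12 times the age's median and the highest of all libraries. Usp18, the protease that removes ISG15 and restrains the receptor, was at 3.39 FPKM or 3.01 times the median, and Oas1b, of the oligoadenylate synthetase family and annotated as a polymorphic pseudogene, at 2.15 FPKM or 2.97 times the median. Oasl2 (2.89 times) and Ifit1 (2.69 times) came next, and this library held the highest value of 4 members. In WT-Q50cage female 2 the 5 largest were Zbp1 at 2.54, Ifit1 at 2.48, Oasl2 at 2.44, Irf7 at 2.44 and Usp18 at 2.36 times the median, and it held the highest value of 3 members. Zbp1 there was at 0.736 FPKM, against a range of 0.0749 to 0.586 FPKM in the other 10-month libraries.

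**Figure D2:**
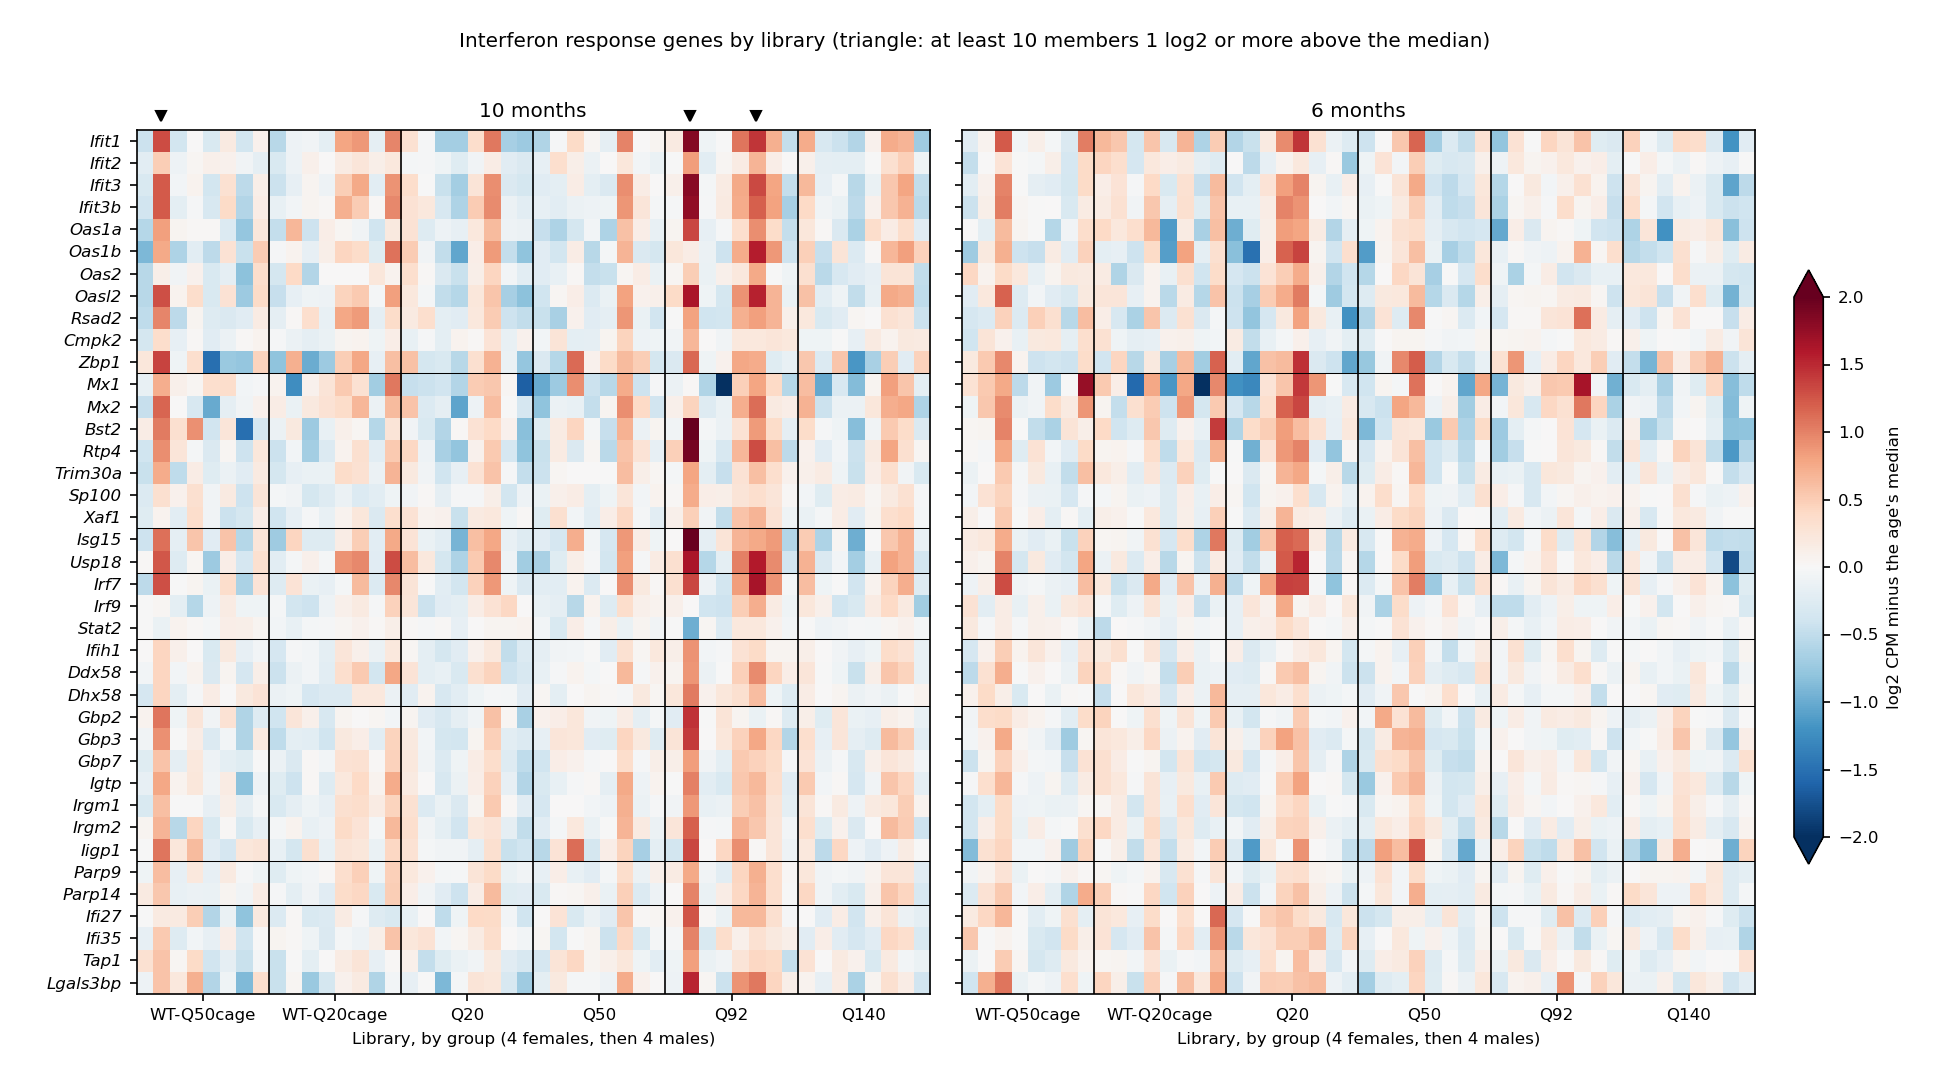
Difference of each member's log2 CPM from the median of the 48 libraries of the same age, one column per library and one row per member, with 10 months left of 6 months, libraries ordered by group and triangles over the libraries that stood high. The 3 libraries that stood high at 10 months show as columns of high values, and Stat2 in Q92 female 2 is low.

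The markers of other cells moved with some of these libraries and not with others. Among the 48 libraries of 10 months, Q92 female 2 ranked 1 for the summed FPKM of 7 Purkinje cell, 17 microglia (192), 10 endothelial, 7 meninges (199), 5 red blood cell and 8 monocyte or neutrophil markers (20.4). It ranked 2 for the 9 choroid plexus markers (2803 FPKM) and 48 for the 6 granule neuron markers (534 FPKM), and on the first principal component of all genes it lay 4.50 scaled median absolute deviations from the median. WT-Q50cage female 2 ranked 2 for Purkinje cell, endothelial, meninges and monocyte or neutrophil markers (20.3 FPKM), 4 for microglia (136 FPKM), 46 for granule neurons and 48 for oligodendrocytes. Q92 male 2 ranked 15 for microglia (122 FPKM), 17 for granule neurons, 34 for endothelial cells, 41 for monocytes or neutrophils (7.95 FPKM) and 47 for both meninges and choroid plexus. Over the 48 libraries the microglial sum ran from 101 to 192 FPKM with a median of 119, and the monocyte or neutrophil sum from 6.75 to 20.4 with a median of 9.69. The 14 markers of T or NK cells summed to 2.15 FPKM in Q92 female 2, 1.71 in Q92 male 2 and 2.39 in WT-Q50cage female 2, against a median of 2.13, with Cd3d, Cd3e and Cd3g listed at 0 in 30, 20 and 23 of the 96 libraries. The part of these cells in the high values was not tested.

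**Figure D3:**
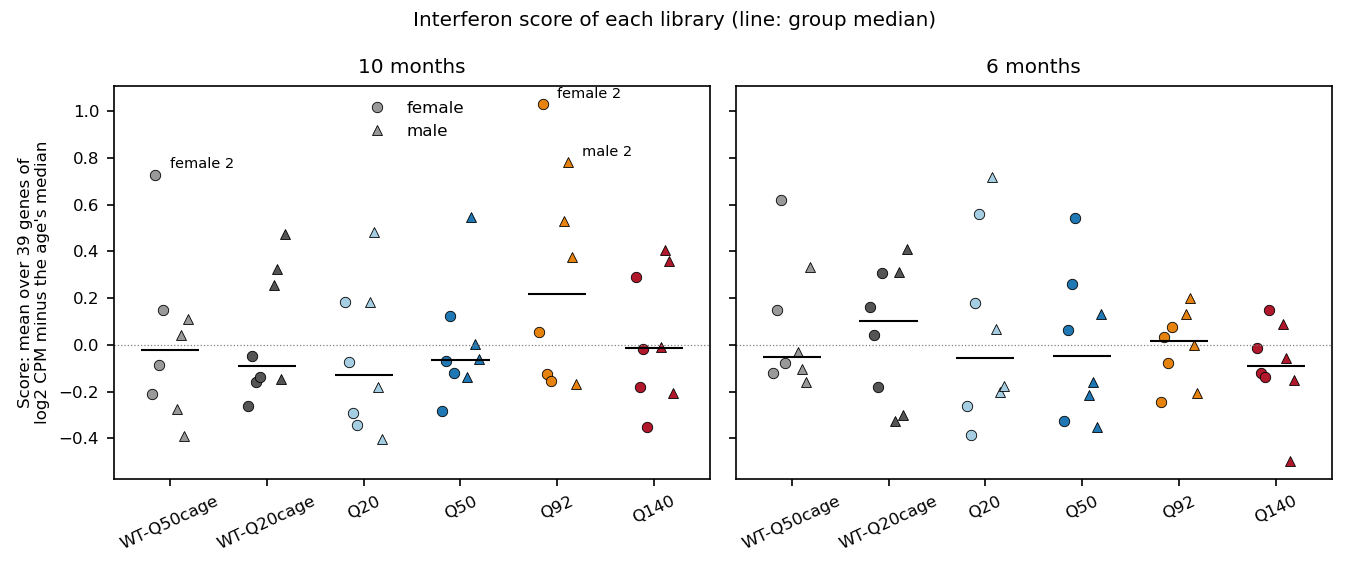
Interferon score of every library by group, females (circles) and males (triangles) side by side, with 10 months left of 6 months; lines are group medians, and the 3 libraries that stood high are named. At 10 months Q92 female 2, Q92 male 2 and WT-Q50cage female 2 lie at 1.03, 0.78 and 0.73, and the highest 6-month score is 0.72 in Q20 male 1.

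The interferons themselves were close to absent. Of 16 interferon genes in the tables, 7 had no read in any library, among them Ifna1, Ifna4 and Ifnl3, and none passed the filter on low counts. Ifnb1 had 1 read in a single library, Ifng had at most 1 read in a library and was at 0 in 86 of 96, and the summed level of the 16 reached at most 0.0802 FPKM at 10 months and 0.123 FPKM at 6 months. At this depth their levels could not be compared between groups.

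With age, nearly the whole list was higher. The comparison of 10 with 6 months used 48 libraries of each age, averaged over the 6 groups and adjusted for sex, and in it 34 of 39 members rose and 1, Stat2, fell (edgeR quasi-likelihood test, Benjamini-Hochberg adjusted over 17384 genes). Of all genes tested, 41.3% were called in this comparison, 20.4% higher and 21% lower, so the members' share of higher calls stood above that of all genes and their share of lower calls below it. The median log2 fold change was 0.36 over the members and 0.00044 over all genes, and 37 of 39 were higher in sign. Age went with the numbering of the libraries, so age and set of libraries cannot be told apart. The ranges of all 39 members overlapped between the ages, and the share of all genes with overlapping ranges was not computed.

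Among the effectors that act on RNA or translation, all 11 rose. Oas2, which makes the second messenger that activates RNase L, ran from 0.305 to 0.945 FPKM at 10 months with a median of 0.561, against 0.225 to 0.847 FPKM at 6 months with a median of 0.412. Its log2 fold change was 0.56 ± 0.07 (SE, adjusted p = 1.56e-09), the smallest p among members, and 47 of 48 libraries of 10 months lay above the 6-month mean. Oasl2 ran from 1.65 to 8.55 FPKM at 10 months with a median of 3.31, against 1.13 to 5.15 FPKM at 6 months with a median of 2.38. It had the largest log2 fold change of the list, 0.64 ± 0.11 (adjusted p = 2.08e-06), with 40 of 48 libraries above the 6-month mean.

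The 4 Ifit genes on the list all rose. Ifit1 ran from 1.34 to 7.70 FPKM at 10 months with a median of 2.22, against 0.651 to 4.22 FPKM at 6 months with a median of 1.52 (log2 fold change 0.60 ± 0.12, adjusted p = 0.000104). Ifit3 had medians of 12.6 FPKM at 10 months and 10.4 FPKM at 6 months (0.47 ± 0.10, adjusted p = 0.000135), and Ifit3b had 5.59 and 4.59 FPKM (0.46 ± 0.09, adjusted p = 9.05e-05). The range of each at 10 months reached down into that of 6 months, and Q92 female 2 set the upper end for all of them. Ifit2, which binds RNA and slows translation, was steadier, at 1.89 to 4.06 FPKM at 10 months against 1.18 to 2.85 FPKM at 6 months (0.30 ± 0.05, adjusted p = 2.68e-06). Cmpk2, a mitochondrial nucleotide kinase, had 3.58 to 6.98 FPKM at 10 months against 2.87 to 4.96 FPKM at 6 months (0.22 ± 0.04, adjusted p = 9.75e-07).

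The 7 members listed under virus restriction, entry or release all rose. The grouping is by reported role, which was not tested in these mice, and Mx2 among them is annotated as a polymorphic pseudogene. Bst2 ran from 1.54 to 18.8 FPKM at 10 months with a median of 4.56, against 1.74 to 9.25 FPKM at 6 months with a median of 3.34 (0.56 ± 0.11, adjusted p = 2.43e-05). Both the lowest and the highest Bst2 value of the series were thus in 10-month libraries. Trim30a, a ubiquitin ligase that dampens Toll-like receptor signalling, had medians of 1.45 and 1.16 FPKM at 10 and 6 months (0.37 ± 0.07, adjusted p = 1.95e-05). Xaf1, an apoptosis-related zinc finger protein, had the smallest change of the 7 at 0.14 ± 0.05 (adjusted p = 0.0317).

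The modifier Isg15 did not pass the test, while its protease Usp18 did. Isg15 ran from 1.01 to 8.11 FPKM at 10 months with a median of 2.07, against 1.05 to 4.67 FPKM at 6 months with a median of 1.93 (0.21 ± 0.11, adjusted p = 0.133, with 25 of 48 libraries above the 6-month mean). Usp18 had medians of 1.12 and 0.951 FPKM at 10 and 6 months (0.49 ± 0.12, adjusted p = 0.00097). The difference between these 2 changes was not tested.

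The transcription factors split. Irf7 rose, with 1.28 to 6.72 FPKM at 10 months and a median of 2.24, against 0.929 to 4.24 FPKM at 6 months and a median of 1.62 (0.50 ± 0.11, adjusted p = 0.000174). Stat2 fell, with 13.2 to 30.9 FPKM at 10 months and a median of 26.8, against 20.3 to 38.8 FPKM at 6 months and a median of 29.3 (-0.14 ± 0.03, adjusted p = 0.000146, with 44 of 48 libraries below the 6-month mean). Irf9 had a log2 fold change of -0.00 ± 0.05 (adjusted p = 0.953), with medians of 10.6 and 10.9 FPKM at 10 and 6 months. The RNA helicases, which sense viral RNA, rose, Ifih1 by 0.28 ± 0.05 (adjusted p = 3.5e-06, medians 1.54 and 1.31 FPKM at 10 and 6 months), Ddx58 by 0.36 ± 0.07 (adjusted p = 1.27e-05, medians 2.39 and 1.97 FPKM) and Dhx58 by 0.12 ± 0.05 (adjusted p = 0.0372).

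Of the 7 GTPases of the guanylate-binding and immunity-related families, which attack the vacuoles of intracellular pathogens, 6 rose. Irgm1, a regulator of the other immunity-related GTPases, ran from 4.83 to 11.2 FPKM at 10 months with a median of 6.18, against 3.72 to 7.06 FPKM at 6 months with a median of 5.04 (0.37 ± 0.05, adjusted p = 1.61e-07). Irgm2 had 0.38 ± 0.06 (adjusted p = 3.55e-06, medians 1.71 and 1.42 FPKM at 10 and 6 months) and Igtp 0.39 ± 0.07 (adjusted p = 2.82e-05, medians 2.37 and 1.92 FPKM). Iigp1 did not pass (0.21 ± 0.10, adjusted p = 0.0816). Both ADP-ribosyltransferase family members rose, Parp9 by 0.26 ± 0.04 (adjusted p = 3.28e-06, medians 2.06 and 1.79 FPKM at 10 and 6 months) and Parp14 by 0.37 ± 0.07 (adjusted p = 7.97e-06, medians 0.907 and 0.721 FPKM).

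Of the remaining 4 members 3 rose. Ifi27 ran from 16.3 to 60.0 FPKM at 10 months with a median of 28.3, against 14.9 to 47.2 FPKM at 6 months with a median of 21.1 (0.40 ± 0.07, adjusted p = 1.97e-06). Lgals3bp, a secreted glycoprotein that binds galectins, had medians of 8.02 and 5.69 FPKM at 10 and 6 months (0.56 ± 0.08, adjusted p = 3.05e-07). Tap1, a subunit of the peptide transporter of antigen presentation, rose by 0.15 ± 0.06 (adjusted p = 0.0283), and Ifi35 had 0.10 ± 0.06 (adjusted p = 0.182).

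**Figure D4:**
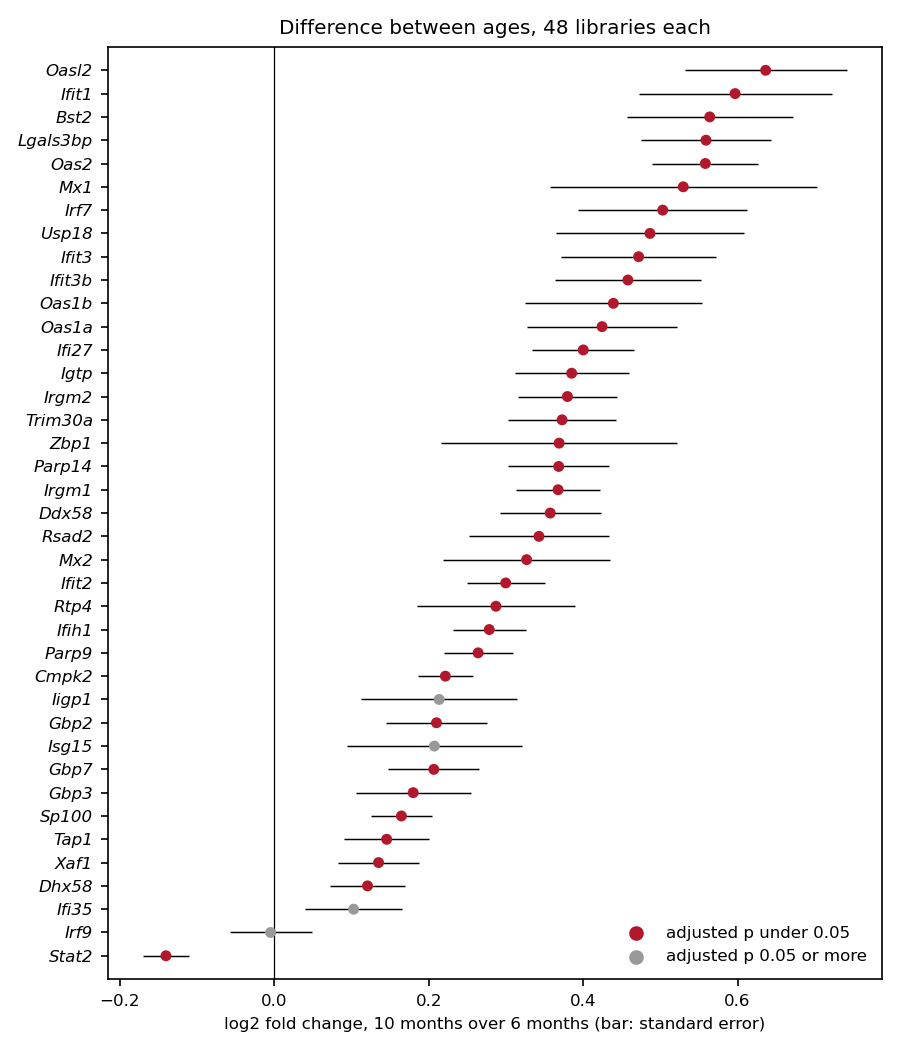
Log2 fold change of each member at 10 against 6 months with its standard error, 48 libraries of each age; red points have an adjusted p under 0.05. Of the 39 members 37 lie above 0, with Oasl2 highest at 0.64 and Stat2 lowest at -0.14.

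The size of the age difference varied with the group, although the difference between groups was not tested except for Q140 against Q20. The members' median log2 fold change was 0.24 in WT-Q50cage and 0.26 in WT-Q20cage mice, and over the knock-in groups it was 0.15 (Q20), 0.27 (Q50), 0.60 (Q92) and 0.39 (Q140). The number of members higher in sign was 36, 34, 29, 37, 38 and 38 of 39 in the same order. Without the 3 libraries that stood high, 28 of the same members were called instead of 35, and the median over the members was 0.27. Calls among all genes did not fall in that fit, at 7438 of 17528 genes, against 7184 of 17384 with all libraries. The 7 member calls lost were Dhx58, Gbp3, Mx2, Rtp4, Tap1, Xaf1 and Zbp1. The call of Zbp1 also ended in 46 of 96 fits with 1 library left out, and that of Gbp3 in 36. When the 12 libraries lying farthest on principal component 1 (over 3 scaled median absolute deviations) were left out, 31 were called, of which 30 were shared with all libraries, and the median was 0.30, while the called genes over the whole table dropped to 3294 of 17623.

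Markers of microglia moved with age as well. Of 17 microglial markers 15 rose, with a median log2 fold change of 0.21 and a range of 0.09 to 0.31, and their summed level ran from 101 to 192 FPKM at 10 months against 89.0 to 166 FPKM at 6 months. Of the 5 tested markers of monocytes or neutrophils 2 rose, of 10 endothelial markers 5, of 7 meninges markers 4, and of 9 choroid plexus markers 5, the last with a median log2 fold change of 0.88. Of 6 granule neuron markers 3 fell. The T or NK cell markers summed to 1.39 to 3.59 FPKM at 10 months against 1.26 to 3.52 FPKM at 6 months, and 3 of the 14 passed the filter on low counts. Their part in the members' change was not tested. Across the 48 libraries of an age, the score and the summed microglial markers had a Spearman's rho of 0.24 at 10 months and 0.33 at 6 months, a description over libraries that share depth.

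Other genes of the pathway, 139 in the tables, were counted by role, beside 20.4% of all genes called higher and 21% called lower with age. With age, 36 of 58 other tested interferon-induced genes rose and 2 fell, led by Trim30d (0.57 ± 0.07, adjusted p = 5.01e-10), and including Trim25, a ubiquitin ligase that activates the helicase product of Ddx58 (0.34 ± 0.04, adjusted p = 2.84e-09), and Ifi27l2a (0.79 ± 0.13, adjusted p = 2.59e-06). Of 13 sensors and adaptors 7 rose, among them Tlr7 (0.35 ± 0.07, adjusted p = 2.47e-05) and Tlr9 (0.52 ± 0.10, adjusted p = 3.61e-05), the receptors for RNA and for DNA in endosomes. Of 10 tested transcription factors 4 rose, including Irf8 (0.29 ± 0.04, adjusted p = 2.53e-07), a factor of myeloid cells, and 1, Irf3, fell (-0.16 ± 0.04, adjusted p = 0.000174). Of 9 receptors and kinases 3 rose, Il10rb, Jak1 and Jak2, and 1 fell, Tyk2 (-0.08 ± 0.03, adjusted p = 0.0497). Of 18 antigen presentation genes 7 rose, and of 9 inhibitors 2 did, Ube2l6 and Ptpn6.

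At 10 months Q92 mice had higher values than Q20 mice in sign for 38 of 39 members, but none passed the test. The comparison of 8 against 8 libraries used Q20 as control because Q92 had no wild types of its own cages here. edgeR called 0 of 39 members, with 22 at an unadjusted p under 0.05, and limma-trend on log2 FPKM also called 0, while DESeq2 called 2. Of all genes 0.224% were called by edgeR and 16.2% had an unadjusted p under 0.05. DESeq2 called 232 of 15299 genes, and 2 of the 39 members had no adjusted p by DESeq2. The median log2 fold change was 0.37 over members, with a range of -0.07 to 0.87, and 0.0048 over all genes.

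Dhx58 had the smallest adjusted p. It was at 1.31, 1.996 and 2.88 FPKM in Q92 mice as the lowest, median and highest, against 1.28, 1.47 and 1.60 FPKM in Q20 mice. The log2 fold change was 0.46 ± 0.12, with an adjusted p of 0.0742 by edgeR and of 0.0313 by DESeq2. Of the 8 Q92 libraries 6 lay above the highest Q20 library, and the groups overlapped in Q92 male 3 at 1.48 and male 4 at 1.31 FPKM. Rtp4 was at 0.903, 1.94 and 4.92 FPKM in Q92 mice against 0.746, 1.14 and 1.92 FPKM in Q20 mice, and here too the groups overlapped (0.87 ± 0.26, adjusted p 0.0986 by edgeR and 0.0499 by DESeq2). Without Q92 female 2 the log2 fold change of Rtp4 was 0.53 (adjusted p = 0.308 by edgeR), with the L number of the labels as a covariate it was 0.51 and without the libraries that stood high 0.35.

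Within the Q92 group the values were uneven. Bst2 was at 4.33, 18.8, 4.42 and 4.14 FPKM in Q92 females 1 to 4 and at 5.63, 8.24, 5.94 and 3.97 FPKM in Q92 males 1 to 4, against 4.32, 3.66, 3.02 and 4.63 FPKM in Q20 females 1 to 4 and 5.61, 6.04, 4.94 and 2.55 FPKM in Q20 males 1 to 4. Only female 2 and male 2 of the Q92 mice lay above the highest Q20 library, male 2 of that group. The scores of the Q92 libraries were 0.06, 1.03, -0.12 and -0.16 in females 1 to 4 and 0.53, 0.78, 0.38 and -0.17 in males 1 to 4. In Q20 they were 0.18, -0.08, -0.29 and -0.34 in females and 0.18, 0.48, -0.18 and -0.40 in males. Of the 8 Q92 libraries, female 2 and males 1 and 2 thus had scores above the highest Q20 library, and male 3 had one above all Q20 libraries but male 2.

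The difference was smaller without the libraries that stood high. These were chosen by the members' own values, with Q92 female 2 and male 2 among them, so a smaller difference follows from that choice. Without Q92 female 2 and male 2, and the wild type library, 33 of 39 members were higher in sign and the median log2 fold change was 0.14, with 0 called and 3 at an unadjusted p under 0.05; the highest was Oasl2 at 0.42. Without Q92 female 2 alone the median was 0.23. Against all 16 wild types of 10 months in place of Q20 it was 0.28, with 0 called and 23 at an unadjusted p under 0.05. The shares of all genes under that p in these fits were not computed. Markers of other cells moved in the same comparison, since 7 of 7 meninges markers were higher in sign, at 36.1 to 199 FPKM summed in Q92 against 23.3 to 58.7 in Q20, and 15 of 17 microglial markers, at 112 to 192 FPKM in Q92 against 114 to 131 in Q20. Among cell type markers 1 was called, the endothelial transporter Slco1a4 (0.41 ± 0.08, adjusted p = 0.021). The part of these cells was not tested.

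**Figure D5:**
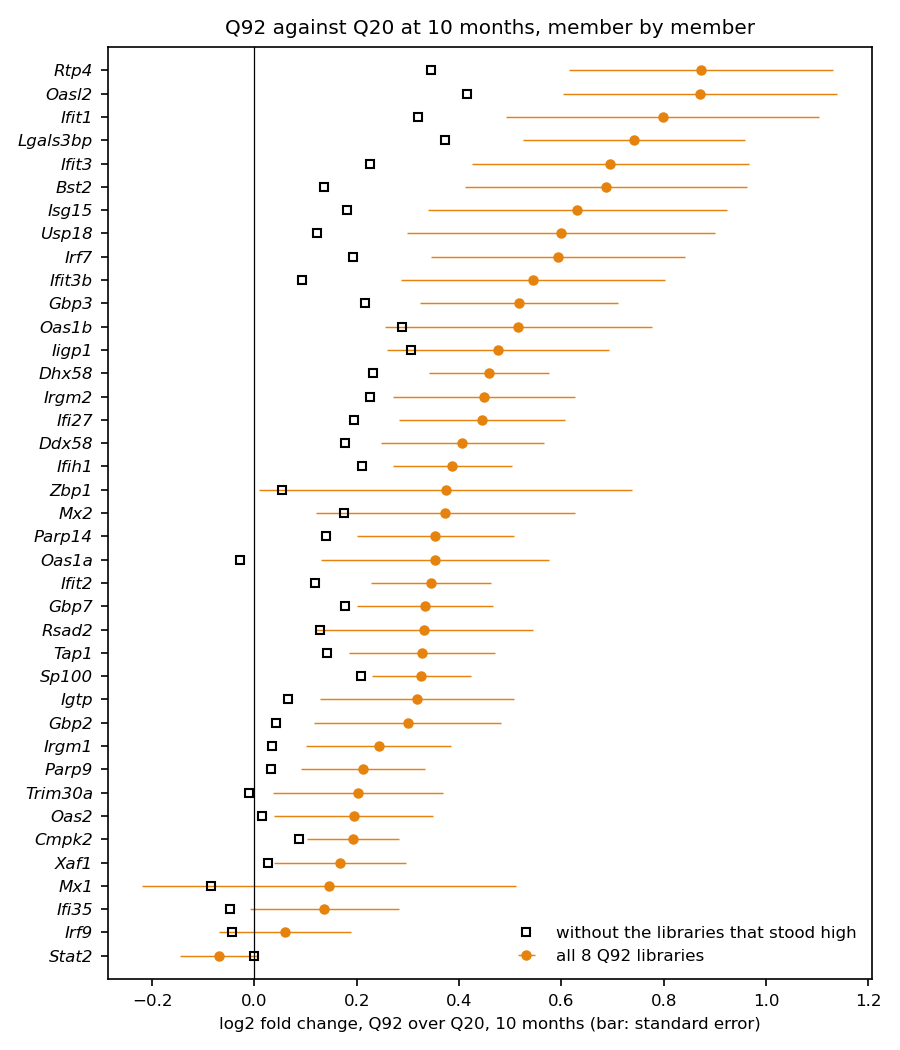
Log2 fold change of each member in Q92 against Q20 mice at 10 months, with all 8 Q92 libraries (filled, bar: standard error) and without the libraries that stood high (open squares). The median is 0.14 without those libraries and 0.37 with all, and edgeR called none of the 39 in either.

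At 6 months the Q92 mice did not show higher values. The edgeR test called 0 of 39 members in Q92 against Q20, with 4 at an unadjusted p under 0.05, and DESeq2 and limma-trend called 0. Of all genes 0.0118% were called and 24.9% had an unadjusted p under 0.05. Only 10 of 39 were higher in sign and the median log2 fold change was -0.11. Irf9 had the smallest adjusted p, 0.164, at 7.83, 10.6 and 12.4 FPKM in Q92 mice against 10.3, 11.9 and 19.6 FPKM in Q20 mice as lowest, median and highest, with overlapping groups (-0.34 ± 0.12).

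In Q140 mice no member passed at either age. At 10 months edgeR called 0 of 39 members in Q140 against Q20, with 0 at an unadjusted p under 0.05, and DESeq2 and limma-trend called 0. Of all genes 2.08% were called by edgeR and 13.9% had an unadjusted p under 0.05. The median log2 fold change was 0.11 against Q20 and -0.00 against the 16 wild types, with 29 and 18 of 39 higher in sign. At 6 months edgeR called 0 of 39, with 9 at an unadjusted p under 0.05, and DESeq2 and limma-trend called 0. Of all genes 0.147% were called and 23.4% had an unadjusted p under 0.05, so the 9 members are near the background. There 31 of 39 members were lower in sign, with a median log2 fold change of -0.18, with -0.15 against the 16 wild types and with -0.37 when the L number was a covariate.

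Bst2 had the smallest adjusted p in Q140 mice at 6 months, 0.166. It was at 1.85, 2.66 and 3.62 FPKM in Q140 mice as lowest, median and highest, against 2.16, 4.28 and 6.12 FPKM in Q20 mice (-0.63 ± 0.24). The groups overlapped, and the Q20 libraries spread more widely than those of Q140. Usp18 (-0.64 ± 0.27, adjusted p = 0.183) and Mx2 (-0.62 ± 0.27, adjusted p = 0.188) were of like size. In the same comparison all 9 choroid plexus markers were lower in sign, with a median log2 fold change of -3.14 and a summed level of 14.1 to 308 FPKM in Q140 against 15.9 to 1667 FPKM in Q20, with 8 of the 9 at an unadjusted p under 0.05 and a smallest adjusted p of 0.105. Microglial markers were lower in sign for 9 of 17. The part of these cells was not tested.

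The trend over CAG length in the 4 knock-in groups gave no call either. At 10 months edgeR called 0 of 39, with 1 at an unadjusted p under 0.05. Of all genes 2.06% were called and 13.6% had an unadjusted p under 0.05. At 6 months it called 0 of 39, with 6 at an unadjusted p under 0.05, and 0.229% of all genes were called and 23.7% had an unadjusted p under 0.05. DESeq2 and limma-trend called 0 at both ages. The median slope per 100 CAG repeats was 0.15 at 10 months, with 37 of 39 members higher in sign, and -0.15 at 6 months, with 7 of 39 higher in sign. Without the libraries that stood high the 10-month median slope was 0.09. With the L number as a covariate the 6-month one was -0.26, with 1 of 39 higher in sign, 19 at an unadjusted p under 0.05 and 0 called. The share of all genes under that p with the covariate was not computed. The change of the Q140 against Q20 difference between the ages was tested directly, and edgeR called 0 of 39 members, with 2 at an unadjusted p under 0.05. DESeq2 and limma-trend called 0 as well. Of all genes edgeR called 0%, and 5.16% had an unadjusted p under 0.05. Its median over the members was 0.24, and the smallest adjusted p was 0.791, for Mx2 (0.87 ± 0.38).

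Some other interferon-induced genes passed in Q140 mice at 10 months, where 187 of all 16947 genes were called higher. Of 58 tested, 4 were higher than in Q20 mice, Parp12 (0.31 ± 0.07, adjusted p = 0.00743), Ifi203 (0.44 ± 0.10, adjusted p = 0.0124), Parp11 (0.14 ± 0.03, adjusted p = 0.0177) and Mndal (0.46 ± 0.13, adjusted p = 0.04), by the edgeR test adjusted over all genes. Parp12 and Parp11 are ADP-ribosyltransferases like Parp9 and Parp14, and Ifi203 and Mndal belong to a family of DNA-binding proteins encoded side by side, whose reads may be shared. The same 4 were called in the trend over CAG length, with slopes of 0.27, 0.41, 0.12 and 0.42 per 100 repeats in the order given. That trend draws on the same Q140 and Q20 libraries, so it is no second test. These 4 genes were not recomputed with other processing. Over all genes, calls in Q140 against Q20 were 353, but 75 against the 16 wild types and 112 with the L number as a covariate. In the comparison with Q20, the oligodendrocyte marker Mobp and the astrocyte marker Gja1 were lower, and their part was not tested. In Q92 mice at 10 months, 52 of the 58 were higher in sign than in Q20 mice with a median log2 fold change of 0.26, and the smallest adjusted p was 0.0756.

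Q20 and Q50 mice could be set against wild types of their own cages. In Q20 mice edgeR called 0 of 39 at 10 months, with 0 at an unadjusted p under 0.05, and 0 of 39 at 6 months, with 2, Stat2 (0.19 ± 0.06, adjusted p = 0.644) and Irf9 (0.27 ± 0.12, adjusted p = 0.713). In Q50 mice it called 0 at both ages, with 0 at an unadjusted p under 0.05. DESeq2 and limma-trend called 0 in all 4. The share of all genes called was 0.0118% for Q20 at each age, and 0.0531% at 10 months and 0.0118% at 6 months for Q50. The share at an unadjusted p under 0.05 was 8.88% at 10 months and 6.23% at 6 months for Q20. For Q50 it was 4.77% at 10 months and 1.05% at 6 months. The members' median log2 fold change was -0.08 at 10 months and 0.03 at 6 months in Q20, and -0.04 at 10 months and -0.09 at 6 months in Q50. These values were close to 0 and moved with the processing. In Q20 at 6 months the median was 0.23, with 35 of 39 members higher in sign and 10 at an unadjusted p under 0.05, when the L number was a covariate. It was 0.16, with 36 higher in sign and 0 at an unadjusted p under 0.05, without the outlying libraries on principal component 1. The shares of all genes under that p in these fits were not computed. In Q50 at 6 months the members' median was -0.17 without those outlying libraries. In Q50 at 10 months 12 of 39 members were higher in sign, against 21 with a median of 0.0055 by limma-trend on log2(FPKM + 0.1). Without the libraries that stood high, here WT-Q50cage female 2, 35 were higher in sign, with a median of 0.11. That library was chosen by its high member values, so a shift upward without it follows from the choice.

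Between the sexes, 1 member passed at each age, and a different one. At 6 months Gbp3 was higher in females, where it ran from 1.64 to 3.76 FPKM with a median of 2.30, against 1.21 to 3.34 FPKM with a median of 1.85 in males. The ranges overlapped, 23 of 24 female libraries lay above the male mean, and the log2 fold change was 0.37 ± 0.09 (adjusted p = 0.0205). Of all genes 0.946% were called in this comparison and 0.494% called higher in females. The other 38 members did not pass, and the median of the 39 was 0.08. With the 11 outlying libraries on principal component 1 left out at 6 months, Gbp3 was at 0.29 with an adjusted p of 0.102.

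At 10 months Irf9 was lower in females. It ran from 7.37 to 12.9 FPKM with a median of 9.58 in females, against 6.57 to 17.3 FPKM with a median of 11.7 in males. The ranges overlapped, 22 of 24 female libraries lay below the male mean, and the log2 fold change was -0.30 ± 0.08 (adjusted p = 0.0131). Of all genes 5.98% were called and 2.31% called lower in females. In sign 34 of 39 members were lower in females, with a median of -0.13, and 9 had an unadjusted p under 0.05, as did 25.4% of all genes. Without the 3 libraries that stood high, 2 of them female, 6 members were called lower in females, Irf9, Cmpk2, Irgm1, Trim30a, Ifit3b and Irf7. Those libraries were chosen by the members' own values, so the added calls are no evidence of their own. Over all genes 742 of 17063 were called in that fit, in either direction, against 1013 of 16947 with all libraries. Gbp3 had medians of 2.25 FPKM in females and 2.42 FPKM in males at 10 months, and the change of the sex difference with age was not tested.

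Other genes of the pathway differed between the sexes at 10 months in a different direction. Of all 16947 genes 621 were called higher in females, and of 18 antigen presentation genes 5 were, H2-Eb1 (0.65 ± 0.16, adjusted p = 0.0109), H2-Aa (0.58 ± 0.14, adjusted p = 0.0135), Cd74 (0.53 ± 0.13, adjusted p = 0.0155), H2-Ab1 and H2-Q7, of which the first 4 belong to the class II pathway. Ifnlr1, the receptor chain for interferon lambda, was higher in females (0.77 ± 0.21, adjusted p = 0.0242), and Samhd1, a nucleotide hydrolase (-0.12 ± 0.04, adjusted p = 0.0413), and Ifi203 (-0.20 ± 0.06, adjusted p = 0.039) were lower. Of 7 meninges markers 4 were higher in females in the same comparison, Dcn, Lum, Ogn and Igf2, as was the microglial marker Fcrls (0.62 ± 0.10), while the neutrophil marker S100a9 was lower (-1.06 ± 0.23). The part of these cells was not tested.

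The wild types of the 2 kinds of cage gave a measure of how far groups of the same genotype differ. In wild types housed with Q50 against wild types housed with Q20, edgeR called 0 of 39 members at each age, with 1 at an unadjusted p under 0.05 at 10 months and 1 at 6 months, and DESeq2 and limma-trend called 0. Of all genes 0.212% were called at 10 months and 0.0646% at 6 months, and 10.7% and 7.94% had an unadjusted p under 0.05. The median log2 fold change was -0.01 at 10 months, and -0.14 without the libraries that stood high, and -0.00 at 6 months. At 6 months it was 0.15 without the outlying libraries on principal component 1, with 38 of 39 members higher in sign, and 0.15 with the L number as a covariate, with 34 of 39 higher in sign; 0 members were called in either. Among the other interferon-induced genes Tnfsf10, which encodes the death ligand TRAIL, was higher in WT-Q50cage at 10 months (0.62 ± 0.14, adjusted p = 0.033).

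Genes outside the list that followed the score most closely were chosen as the 10 with the highest lower correlation of the 2 ages, among 16788 genes. Slfn8 had Spearman's rho of 0.83 at 10 months and 0.81 at 6 months, Ddx60 0.85 and 0.72, Lgals9 0.79 and 0.69, Trim30d 0.77 and 0.66, and Nlrc5 0.72 and 0.67 (n = 48 libraries each). Ifi27l2a, Psmb8, Cxcl10, Ifi204 and Gm6548 lay between 0.67 and 0.73. All but Gm6548 were already on the lists of other pathway genes. Those lists were chosen with earlier results of these data known, so the overlap is a description only.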

How the data were processed

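RNA from 96 cerebellum samples was sequenced by the submitters, with CASAVA 1.8.2 named in the submitters' processing notes; aligner, build, annotation and strand: not given in the sources used here. The authors deposited a table of expected counts, of which 81.6% were exactly whole numbers, and a table of FPKM for the same 39179 Ensembl genes, of which 37607 were named through GENCODE M21. After rounding to whole counts, edgeR 4.0.16 in R 4.3.3 gave two-sided quasi-likelihood tests (TMM factors; filterByExpr, minimum count 10, minimum total count 15), within each age on 48 libraries with 6 groups and sex as terms, and across ages on 96 libraries with 12 groups and sex. In all 16 comparisons p-values were adjusted by Benjamini and Hochberg over all tested genes and called under 0.05. Log2 CPM used a prior count of 2. Libraries held between 29957797 and 39477325 counts, which limits precision for the 9 members under 1 FPKM. The fits were tested on simulated data with known changes.

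The members and lists were chosen with earlier results of these data known. Named with values were members called in a comparison (up to the 20 with the smallest p), the 3 of highest mean FPKM, the 5 members most in excess in each library that stood high, and the 10 outside genes most like the score. Isg15, Irf9, Iigp1, Ifi35, Xaf1, Tap1, Dhx58, Usp18 and the genes of smallest p in a comparison without calls were named after their values were seen. Alternatives were RLE factors, no low-count filter, DESeq2 1.42.0, limma 3.58.1 on log2(FPKM + 0.1) and log2(FPKM + 1), each library left out, the replicate number as a block, the L number in the labels as a covariate, all 16 wild types as control, and leaving out libraries that stood high or lay over 3 scaled median absolute deviations from the median on principal component 1. Correlations between same-numbered samples of different groups had medians of 0.01 in females and 0.01 in males at 6 months. At 10 months the medians were 0.06 and 0.02, against -0.03 and -0.0035 for samples of different number. Single same-numbered pairs reached 0.73 in males of 6 months, so the medians do not show whether some libraries were paired. Promoters and sequences came from RefSeq, GRCm38.p6.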

Additional observations from a re-analysis of the deposited data

Results flagged for a closer look

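In the 24 groups of 4 libraries of one genotype, cage, sex and age, 10 members were checked for a value standing apart by Dixon's criterion, and 14 of 240 checks met it; chance gives about 1 in 20. All 10 were chosen for their excess in the libraries that stood high, so values in those libraries describe that choice and the count is no evidence of its own. Values are log2 CPM minus the median of the age. In Q92 females of 10 months, female 2 was far above the other 3 for Bst2 (2.07), Ifit1 (1.83) and Ifit3 (1.83). In Q92 males of 10 months, male 4 was below the other 3 for Isg15 (-0.59). WT-Q20cage female 2 was above its group for Zbp1 at 10 months (0.71), Q50 female 3 was above its group for Ifit3 (0.15), and WT-Q20cage male 3 was below its group for Ifit1 (-0.19). At 6 months WT-Q50cage female 3 was above the other females of its group for Bst2 (0.99) and Irf7 (1.31), and WT-Q50cage male 4 above the other males for Irf7 (0.62) and Zbp1 (0.37). Q140 male 1 was above its group for Isg15 (0.24), Q92 female 1 below its group for Oasl2 (-0.18), and WT-Q20cage female 3 below its group for Ifit1 (-0.35). No group held a library that stood apart in the score over the 39 members.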

How the results depend on the processing

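Of the values of single named members recomputed with one choice changed, leaving single libraries aside, 420 kept their direction and their side of the threshold, 28 lost a call, 2 gained one and 5 changed sign. The calls lost were those of Dhx58, Gbp2, Gbp3, Gbp7, Mx2, Rtp4, Tap1, Xaf1 and Zbp1 with age and of Gbp3 between the sexes at 6 months. Leaving out single libraries ended the age call of Zbp1 in 46 of 96 cases, of Gbp3 in 36, of Dhx58 in 5 and of Tap1 in 1. The number of members called with age was 35 with RLE factors, with DESeq2 and with the replicate block, 30 without a low-count filter and 30 with limma-trend at either pseudocount, 31 without the outlying libraries on principal component 1 and 28 without the libraries that stood high, against 35 as reported; leaving out single libraries gave 31 to 36. In females against males at 6 months the 1 call became 0 without the outlying libraries on principal component 1. At 10 months it became 6 without the libraries that stood high, 3 without the outlying library, Q92 female 2, and 1 to 3 when single libraries were left out, with 2 without Q20 female 1, Q20 male 4 or WT-Q50cage female 2. In Q92 against Q20 at 10 months DESeq2 called 2 members, and leaving out single libraries gave 0 to 1, the 1 being Dhx58 without Q92 male 3 or male 4. Irf9 in that comparison changed sign, at -0.0317 with the L number as a covariate, -0.0443 without the libraries that stood high, -0.02003 and -0.0166 with limma-trend at pseudocounts of 0.1 and 1, and -0.0227 without Q92 male 2. Stat2 there was at 0.0215 without the outlying library and at 0.0239 with Q92 female 2 left out singly. The cause of these changes was not tested.

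With the L number as a covariate the median over the members in Q140 against Q20 at 6 months was -0.37, with 21 members at an unadjusted p under 0.05 and 0 called. The share of all genes under that p in this fit was not computed. Whether the replicate numbers pair some of the libraries is not known. With the replicate block the age comparison called 35 members and the genotype and cage comparisons 0. Sex comparisons had no block, because the numbers are counted within each sex. Over all genes, Q140 against Q20 at 10 months called 353 genes, 482 with DESeq2, 877 without the libraries that stood high, 784 without Q92 female 2, 112 with the L number and 75 against the 16 wild types. Q92 against Q20 at 10 months called 38, 232 with DESeq2, 72 with the replicate block, 14 without a filter, 9 against the 16 wild types and 1 with the L number. At 6 months Q140 against Q20 called 25, 173 with DESeq2 and 6 without the outlying libraries. Females against males at 10 months called 1013, 622 without a filter and 371 with the L number. Depth limits what can be said of Mx1 and Zbp1, the members of lowest level.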
